A study of Macaca mulatta with 12 samples.

Results

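CACNB2, KALRN, ST8SIA1 and FAM210B are 4 genes of the rhesus macaque corpus luteum whose array signal in late functional glands was set apart from that in late regressed and in mid-late glands. They were selected on these same array values, because late functional arrays differ from both other groups, so every value that sets late functional arrays against another group is given here as a description, with no test. The platform annotation gave exactly 1 of these symbols to 9 probe sets, 3 for CACNB2, 2 for KALRN, 1 for ST8SIA1 and 3 for FAM210B, of 52707 probe sets and 14132 genes tested. All 9 are shown. Of the comparisons, 1, late regressed against mid-late glands, was not used directly in the choice and was tested. It is fixed by the 2 differences that were used, so it is not free of the choice.

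The corpus luteum forms from the ovulated follicle, secretes progesterone and regresses when no pregnancy begins. Each of 12 corpora lutea from normally cycling female rhesus macaques was hybridised to 1 one-colour Affymetrix array, and the labels call the arrays biological replicates. Late functional glands (4 arrays) were taken 14 to 16 days after the LH surge at serum progesterone above 1.5 ng/ml. Late regressed glands (4 arrays) came from the same days at serum progesterone below 0.5 ng/ml. Mid-late glands (4 arrays), the baseline stage, were taken at days 10 to 12. No serum value per animal is used here, and whole glands were measured, so luteal, vascular, stromal and immune cells contribute together. In such bulk RNA, fewer cells of a type and less RNA per cell cannot be told apart.

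The 4 genes act in unrelated systems. CACNB2 encodes a beta subunit of voltage-gated calcium channels, which binds the pore-forming alpha-1 subunit inside the cell, helps bring it to the surface membrane and tunes its opening. KALRN encodes kalirin, a large exchange factor of the Dbl family that loads GTP onto small GTPases such as RAC1 and is best known from neuronal spines. ST8SIA1 encodes GD3 synthase, a Golgi enzyme that adds a sialic acid to the ganglioside GM3 to make GD3. FAM210B encodes a mitochondrial inner membrane protein known for its part in iron delivery to haem synthesis in developing red cells.

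The arrays carried luteal RNA. All 13 measured genes of a luteal steroidogenic marker list lay above the 95th percentile of the 674 probe sets with the identifier prefix NC (4.64 on the log2 scale), which is used here as a mark of low signal. Late regressed arrays 2 and 3 stood apart, scoring 93.2 and 81.6 on a first principal component with 40.8% of the variance, against -43 to 12.6 for the other 10 arrays. Array 2 of that group also had the highest 3′ to 5′ difference of actin and GAPDH control signal, 2.52 against 0.46 to 0.70 on the other 11. Both quality measures differed between some of the groups at an unadjusted p below 0.05, and in no case at an adjusted p below 0.05. The 3′ to 5′ difference averaged 0.588 in late functional and 0.663 in mid-late arrays (exact permutation p = 0.0286, adjusted 0.0572). It averaged 1.048 in late regressed arrays, with array 2 included (exact permutation p = 0.714 against late functional and 0.886 against mid-late). The NC probe sets averaged 3.573 on late functional and 3.551 on late regressed arrays, each against 3.691 in mid-late arrays (exact permutation p = 0.0286, adjusted 0.0572, for both). With the NC mean as a covariate limma called 0 probe sets in either comparison with mid-late arrays, and the part of these measures in the values was not tested further. Results that rest on late regressed arrays 2 and 3 are given with and without them. Over all 52707 probe sets, limma called 0.892% between late functional and mid-late, 0.00190% between late functional and late regressed and 10.0% between late regressed and mid-late arrays at an adjusted p below 0.05. For late functional against the mean of both other groups it called 0.0190%.

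Values below are RMA log2 values per array, and each difference is 1 group mean minus another on that scale, with its SE taken from the limma model. On 7 of the 9 probe sets the 4 late functional arrays did not overlap with any of the 8 other arrays, 6 lying above and 1 below them. Over all probe sets, late functional arrays lay above all 8 others on 0.567% and below all 8 on 0.324%. The choice of genes used this separation, so nothing is read from the counts. The exceptions were the remaining probe sets of FAM210B, described further on.

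**Figure D1:**
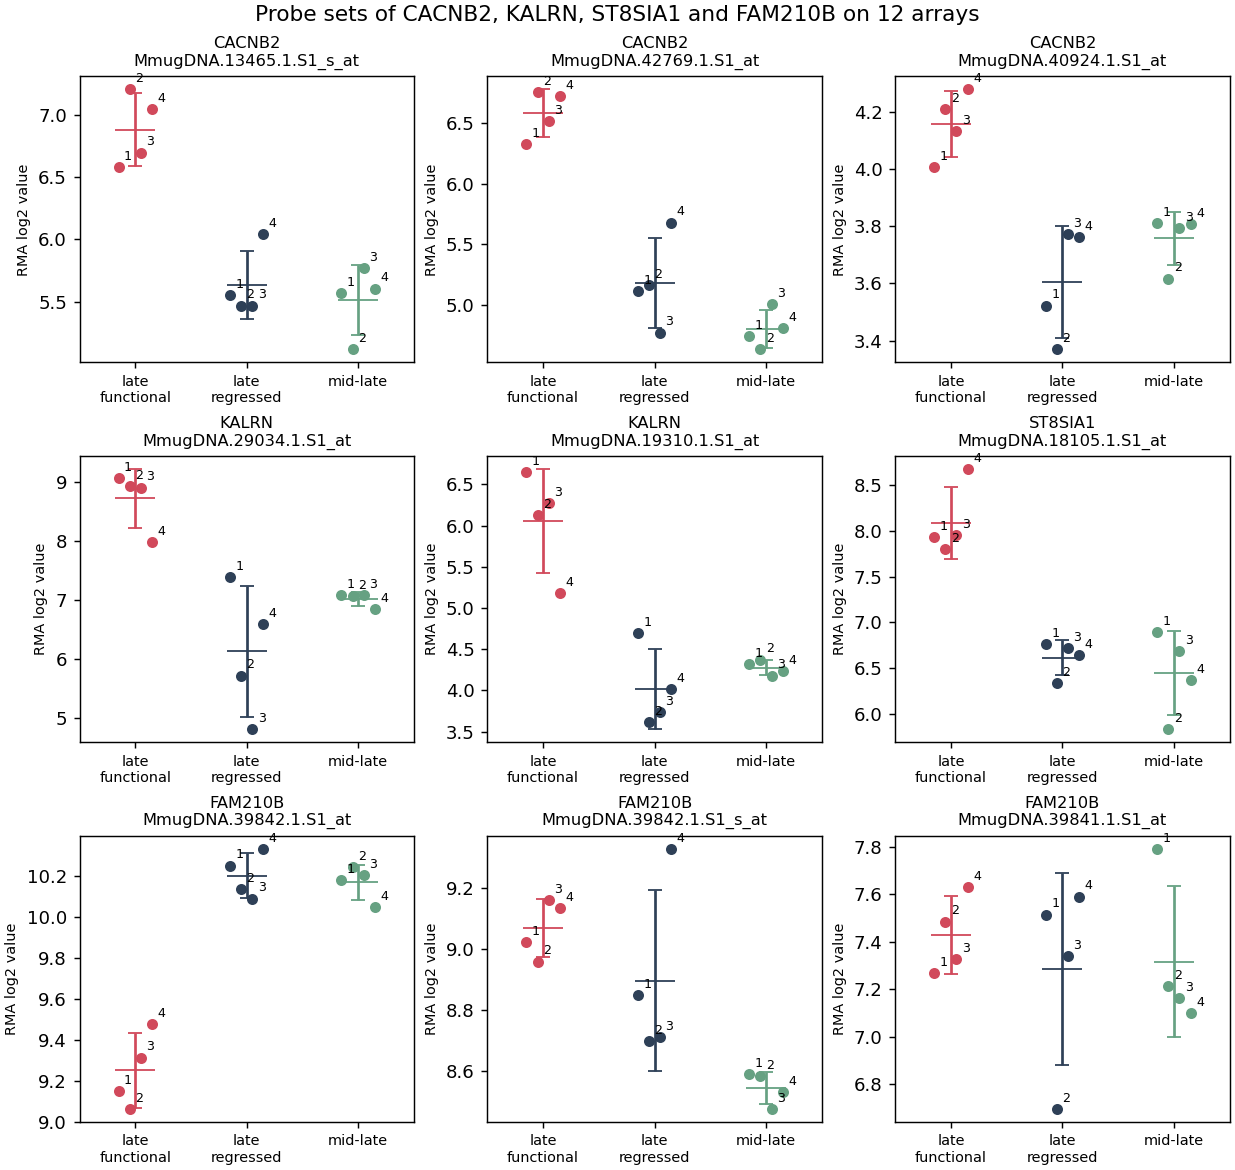
RMA log2 values of the 9 probe sets, 1 panel each, on late functional, late regressed and mid-late arrays (4 each). Points are arrays, labelled by replicate number, and bars show the mean and SD. In the 3 CACNB2, 2 KALRN and 1 ST8SIA1 panels every late functional point lies above the other 8, and for FAM210B the pattern differs between its probe sets.

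CACNB2 signal was higher in late functional glands on all 3 of its probe sets. On MmugDNA.13465.1.S1_s_at the late functional arrays read 6.58, 7.20, 6.70 and 7.04, the late regressed arrays 5.55, 5.47, 5.47 and 6.04, and the mid-late arrays 5.57, 5.12, 5.77 and 5.60. The late functional arrays were all high, with a gap of 0.54 to the nearest late regressed array, number 4, and of 0.81 to the nearest mid-late array. The difference was 1.25 (SE 0.18) from late regressed and 1.37 (SE 0.18) from mid-late arrays, 2.38-fold and 2.58-fold.

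MmugDNA.42769.1.S1_at gave the larger CACNB2 differences. It read 6.33, 6.75, 6.52 and 6.72 in late functional, 5.11, 5.16, 4.77 and 5.68 in late regressed, and 4.74, 4.63, 5.01 and 4.81 in mid-late arrays. Again array 4 was the highest of the late regressed group. Late functional arrays exceeded late regressed ones by 1.40 (SE 0.17), or 2.64-fold, and mid-late ones by 1.78 (SE 0.17), or 3.44-fold. In mid-late glands 2 of the 4 arrays lay above their own NC 95th percentile, so the size of the last fold is uncertain. The probe set MmugDNA.40924.1.S1_at lay below that mark on all 12 arrays, at 4.16 ± 0.12 in late functional, 3.61 ± 0.20 in late regressed and 3.76 ± 0.09 in mid-late arrays (SD, n = 4 each). Its late functional arrays were still the highest of the 12, with a gap of 0.20 to mid-late and 0.23 to late regressed.

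KALRN differed most of the 4 genes from late regressed glands and had the widest spread among late regressed glands. MmugDNA.29034.1.S1_at read 9.06, 8.94, 8.91 and 7.99 in late functional, 7.40, 5.72, 4.81 and 6.59 in late regressed, and 7.08, 7.07, 7.08 and 6.84 in mid-late arrays. Mid-late arrays were tight, at 7.02 ± 0.12, late functional ones averaged 8.72 ± 0.50 and late regressed ones 6.13 ± 1.11 (SD, n = 4 each). The late functional mean exceeded the mid-late mean by 1.70 (SE 0.44), or 3.26-fold. It exceeded the late regressed mean by 2.59 (SE 0.44), or 6.03-fold, and by 1.73 (SE 0.29) when late regressed arrays 2 and 3 were left out.

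The second KALRN probe set, MmugDNA.19310.1.S1_at, followed the first at a lower signal. Its values were 6.65, 6.13, 6.27 and 5.18 in late functional, 4.69, 3.61, 3.74 and 4.01 in late regressed, and 4.32, 4.37, 4.18 and 4.23 in mid-late arrays. Late functional array 4 was the lowest of its group and late regressed array 1 the highest of its group on both probe sets. All 4 late functional arrays lay above the NC 95th percentile of their array, against 1 late regressed and 0 mid-late arrays. The differences, 2.04 (SE 0.29) from late regressed and 1.78 (SE 0.29) from mid-late, are therefore of uncertain size. RefSeq (assembly T2T-MMU8v2.0) lists 24 KALRN and 11 CACNB2 transcripts, and the files do not say which of them each probe set detects.

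Among the 4 late regressed arrays, KALRN was high and low on the same arrays as the luteal steroidogenic list. The mean of that list on late regressed arrays 1 to 4 was 9.72, 8.46, 8.30 and 9.29, beside 7.40, 5.72, 4.81 and 6.59 for MmugDNA.29034.1.S1_at, with arrays 1 and 4 high and 2 and 3 low in both. Arrays 2 and 3 are those that stood apart on the first principal component, so many other genes may share this order. Without them 2 late regressed arrays remain, too few to compare. In the late functional group array 4 was the lowest for both, at 9.57 for the list and 7.99 for KALRN. The list did not place the groups in the KALRN order, since it averaged 9.91 ± 0.25 in late functional, 8.94 ± 0.68 in late regressed and 10.28 ± 0.14 in mid-late arrays (SD, n = 4 each). Its part in the KALRN values was not tested.

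ST8SIA1 has 1 probe set, MmugDNA.18105.1.S1_at, and 1 RefSeq transcript. It read 7.94, 7.81, 7.95 and 8.68 in late functional, 6.76, 6.34, 6.72 and 6.64 in late regressed, and 6.90, 5.83, 6.68 and 6.37 in mid-late arrays. Late functional arrays were high without exception, 1.04 above the highest late regressed and 0.91 above the highest mid-late array. Late functional array 4, the lowest of its group for KALRN, was here the highest. The mean of 8.09 ± 0.40 exceeded the late regressed mean of 6.61 ± 0.19 by 1.48 (SE 0.23), or 2.79-fold, and the mid-late mean of 6.45 ± 0.46 by 1.65 (SE 0.23), or 3.13-fold (SD, n = 4 each).

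FAM210B was lower in late functional glands on 1 of its 3 probe sets. MmugDNA.39842.1.S1_at read 9.15, 9.06, 9.31 and 9.48 in late functional, 10.25, 10.14, 10.09 and 10.33 in late regressed, and 10.18, 10.24, 10.21 and 10.05 in mid-late arrays. The late functional arrays were all low, 0.61 below the lowest late regressed and 0.57 below the lowest mid-late array. Their mean differed by -0.95 from late regressed and by -0.92 from mid-late arrays (SE 0.10 for each), 1.93-fold and 1.89-fold lower.

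The other FAM210B probe sets did not share this decrease. MmugDNA.39842.1.S1_s_at, which carries the same design number with the suffix Affymetrix gives to probe sets that may match several transcripts, read 9.02, 8.96, 9.16 and 9.14 in late functional arrays. It read 8.85, 8.70, 8.71 and 9.33 in late regressed and 8.59, 8.58, 8.47 and 8.53 in mid-late arrays. Here the late functional mean was higher than both others, by 0.17 (SE 0.12) and 0.53 (SE 0.12), and late regressed array 4 was the highest of the 12. MmugDNA.39841.1.S1_at averaged 7.43 ± 0.16 in late functional, 7.29 ± 0.41 in late regressed and 7.32 ± 0.32 in mid-late arrays (SD, n = 4 each), with all groups overlapping.

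Averaged over the 3 probe sets, FAM210B differed by -0.21 (SE 0.12) between late functional and late regressed and by -0.09 (SE 0.12) between late functional and mid-late arrays. The decrease thus rests on 1 probe set. All 3 lay above the NC 95th percentile on all 12 arrays. RefSeq lists 1 FAM210B transcript, and the files do not give the position of the probes on it. For CACNB2 and KALRN the same averaging gave 1.07 (SE 0.135) and 2.32 (SE 0.348) over late regressed, and 1.18 (SE 0.135) and 1.74 (SE 0.348) over mid-late arrays.

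**Figure D2:**
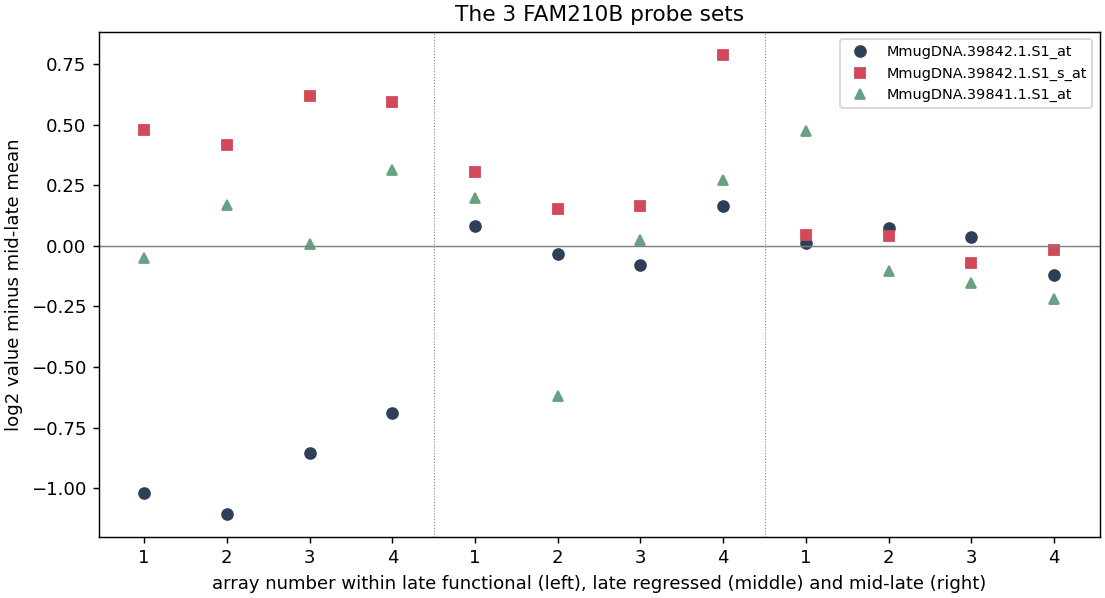
The 3 FAM210B probe sets on each array, as the log2 value minus that probe set's mid-late mean, for late functional (left), late regressed (middle) and mid-late (right) arrays. MmugDNA.39842.1.S1_at lies low on all 4 late functional arrays, where MmugDNA.39842.1.S1_s_at lies above 0 on all 4.

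Late regressed against mid-late glands was the comparison that the choice of genes did not use directly. It is fixed by the 2 differences that chose them, so genes whose other groups lie close together may have been favoured. The counts and intervals that follow are therefore not free of the choice. Of the 9 probe sets, 0 were called by limma at an adjusted p below 0.05, where 10.0% of all probe sets were, and 2 had an unadjusted p below 0.05, where 29.6% of all probe sets did. These were MmugDNA.42769.1.S1_at of CACNB2, 0.38 higher in late regressed glands (95% interval 0.012 to 0.753, limma adjusted p = 0.157), and MmugDNA.39842.1.S1_s_at of FAM210B, 0.35 higher (0.0817 to 0.624, limma adjusted p = 0.0871). The call on the FAM210B probe set was made after median centring (limma adjusted p = 0.0479) and in none of its other alternatives.

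The intervals of the leading probe sets describe the late regressed against mid-late difference. Because of the choice, no bound is read from them. For MmugDNA.39842.1.S1_at of FAM210B the difference was 0.03 (95% interval -0.179 to 0.243, limma adjusted p = 0.853). That interval does not reach the size of the late functional differences on this probe set, which the choice may have favoured. ST8SIA1 differed by 0.17 (-0.342 to 0.679, limma adjusted p = 0.667) and CACNB2 on MmugDNA.13465.1.S1_s_at by 0.12 (-0.281 to 0.516, limma adjusted p = 0.704). KALRN on MmugDNA.29034.1.S1_at was lower by its mean, at -0.89 (-1.85 to 0.0757, limma adjusted p = 0.201). That value turned on which late regressed arrays entered. It was -0.02 without arrays 2 and 3 (limma adjusted p = 0.974) and -1.31 without array 1, where it was called (limma adjusted p = 0.0358). The second KALRN probe set differed by -0.26 (limma adjusted p = 0.577), and by 0.08 without arrays 2 and 3.

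**Figure D3:**
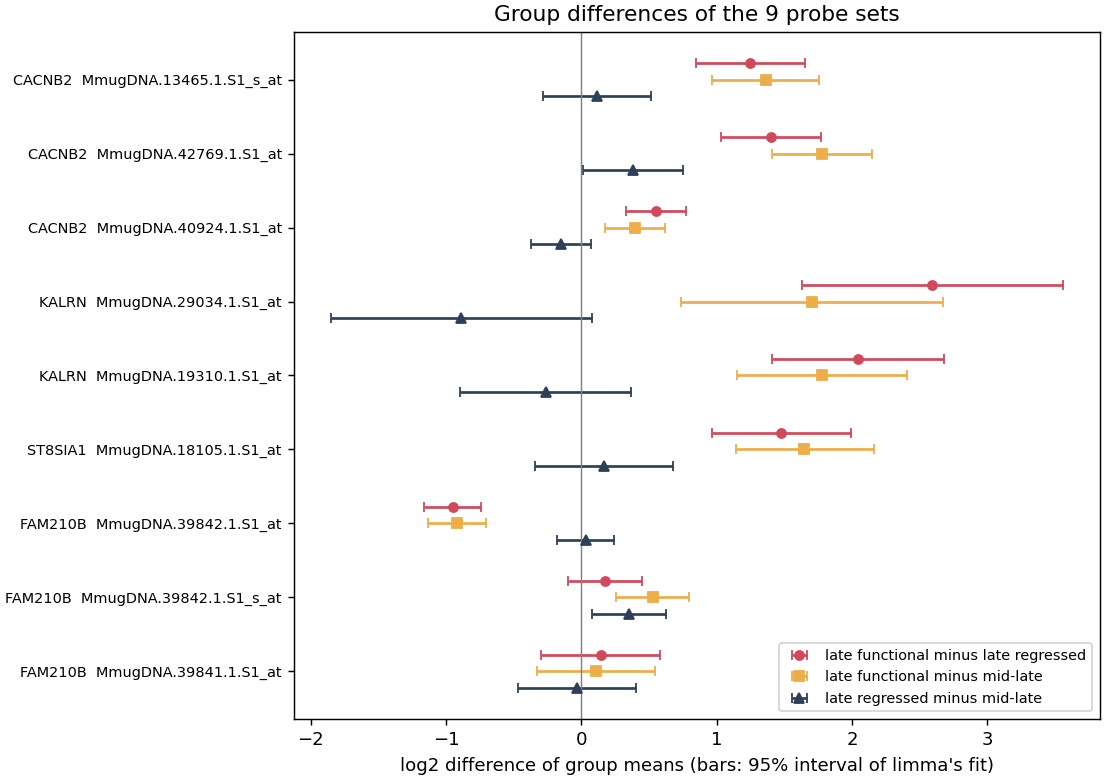
Log2 differences of group means for the 9 probe sets, with 95% intervals of limma's fit, for late functional minus late regressed, late functional minus mid-late and late regressed minus mid-late. The first 2 kinds of difference chose the genes and share the late functional arrays. Late regressed minus mid-late lies between -0.89 and 0.38.

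Genes whose array-to-array pattern was most like that of each leading probe set were ranked by Pearson correlation over the 12 arrays. The 8828 other genes ranked had a mean over all 12 arrays above the NC mark. The 12 arrays share 3 groups, so a high correlation mostly repeats the group pattern, and it is given as a description. For CACNB2 the highest were SEC22B, a SNARE of membrane traffic (r = 0.97), ERAP2, which trims peptides in the endoplasmic reticulum (0.92), and the interferon-inducible SAMD9L (0.92). ERAP2 averaged 6.11 ± 0.10 in late functional, 4.44 ± 0.40 in late regressed and 4.53 ± 0.40 in mid-late arrays (SD, n = 4 each). Its late regressed and mid-late means lie below the NC mark of 4.64. ERAP2 thus entered the ranking only through its late functional arrays, and the size of its difference is uncertain. The lowest were FAM210B (-0.88) and MICALL2 (-0.90). For ST8SIA1, CACNB2 itself came first (0.92), followed by SAMD9L (0.91) and RAPGEF3, an exchange factor for RAP1 that cyclic AMP activates (0.90). FAM210B (-0.84) and MICALL2 (-0.83) were again at the other end.

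FAM210B ran most closely with SRGAP1, a GTPase-activating protein (0.88), the deubiquitinase gene USP22 (0.87) and HAGHL (0.82), and most oppositely to TAP2, a subunit of the peptide transporter of antigen presentation (-0.93), and SAMD9L (-0.93). SAMD9L, which appeared for 3 of the 4 genes, read 9.49, 9.53, 9.03 and 9.55 in late functional, 8.08, 8.16, 8.13 and 7.82 in late regressed, and 7.67, 7.53, 8.36 and 7.98 in mid-late arrays. KALRN had other companions. ECHDC1, a metabolite repair enzyme gene (0.95), TM7SF3 (0.95) and MACO1 (0.94) were highest, and the intermediate filament gene VIM (-0.90) and RAC1 (-0.89) lowest. RAC1 averaged 11.18 ± 0.06 in late functional, 11.60 ± 0.32 in late regressed and 11.37 ± 0.11 in mid-late arrays (SD, n = 4 each).

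The wider systems around CACNB2, ST8SIA1 and FAM210B were read from 5 lists with 106 measured genes. In late functional glands limma called 0 of the 106 against mid-late, where 1.17% of all 14132 genes were called, and 0 against late regressed, where 0.00708% were. The counts of 0 depended on the arrays in the fit. Against mid-late it was 5 (CACNA1B, CACNB3, CACNG2, GM2A and TFRC) without late regressed arrays 2 and 3, and at most 6 in any alternative. The fit without those arrays called 2417 of all 52707 probe sets. Against late regressed it was 8 without late regressed array 1, where 924 of all probe sets were called. An unadjusted p below 0.05 was found for 19 of the 106 (17.9%) against mid-late, where 20.1% of all genes had one, and for 23 (21.7%) against late regressed, where 16.1% did. Between late regressed and mid-late glands 5 rose and 9 fell, 13.2% of the lists, where 7.60% of all genes rose, 5.51% fell and 13.1% were called in all. Without late regressed arrays 2 and 3, 4 of the 106 were called, where 975 of all probe sets were. For fits with arrays left out, the list counts are genes and the background counts are probe sets. Calls over all genes were not counted in those fits, so the 2 cannot be compared as shares.

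Calcium channel partners of CACNB2 were called between late regressed and mid-late glands in 7 of 20 cases, 3 higher and 4 lower, and in 0 cases in the other comparisons. Without late regressed arrays 2 and 3 the late regressed against mid-late count was 2 (CACNB3 and CACNA1B), where 975 of all probe sets were called. In late functional against mid-late glands 3 (these and CACNG2) were then called, where 2417 of all probe sets were. Without late regressed array 1, CACNB3, CACNA2D1 and RRAD were called in late functional against late regressed glands, where 924 of all probe sets were. RRAD and GEM, small GTP-binding proteins that bind beta subunits and restrain the channels, rose. RRAD read 6.98, 9.77, 9.09 and 7.93 in late regressed and 6.35, 6.54, 6.33 and 6.73 in mid-late arrays, a difference of 1.96 (SE 0.46, limma adjusted p = 0.0251). GEM averaged 7.05 ± 0.89 in late regressed and 5.29 ± 0.56 in mid-late arrays (SD, n = 4 each; limma adjusted p = 0.0263). CACNB3, another beta subunit, rose by 0.98 (limma adjusted p = 0.00548), to 6.54 ± 0.25 in late regressed, against 5.56 ± 0.10 in mid-late arrays. CACNA2D1, an auxiliary alpha-2/delta subunit, fell by 1.24 (limma adjusted p = 0.0255). CACNA1B (-0.62) and CACNG1 (-0.31) fell too (limma adjusted p = 0.00643 and 0.0485). CACNG2 was called as well (limma adjusted p = 0.0246) but lay below the NC mark, so no size is read from it. These 3 were named after their values were seen. The other probe sets of GEM, CACNB3 and CACNA1B were not called.

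Without late regressed arrays 2 and 3 the CACNB3 call remained (limma adjusted p = 0.0243). RRAD shrank to 0.97 (0.056), GEM to 1.06 (0.147) and CACNA2D1 to -0.73 (0.152), and these 3 lost their limma calls. The alpha-1 subunit gene CACNA1C, at 3.69 ± 0.15 in late functional, 3.77 ± 0.13 in late regressed and 3.81 ± 0.12 in mid-late arrays, lay below the NC mark, and CACNA1D, at 4.59, 4.48 and 4.58 in the same order, just under it. Both were looked at after the data were seen. Of 22 calcium store and sensor genes, 1 was called between late regressed and mid-late glands (4.55%, where 13.1% of all genes were). The inositol trisphosphate receptor gene ITPR3 fell by 0.39 in late regressed glands (limma adjusted p = 0.0311). Its late regressed mean of 4.63 lay just under the NC mark, so the size of the fall is uncertain. Without arrays 2 and 3 the ITPR3 difference was -0.43 and not called (limma adjusted p = 0.0937).

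Of 25 genes of ganglioside synthesis and sialylation around ST8SIA1, 1 was called between late regressed and mid-late glands (4.00%, where 13.1% of all genes were). CMAS, which activates sialic acid to the CMP form that sialyltransferases use, fell by 0.95 in late regressed glands (limma adjusted p = 0.00749). Its arrays read 10.94, 10.32, 10.38 and 10.58 in late regressed and 11.51, 11.73, 11.34 and 11.45 in mid-late glands, without overlap. Its 4 other probe sets were called as well, and the call remained without late regressed arrays 2 and 3 (limma adjusted p = 0.0441). In late functional glands CMAS averaged 11.31 ± 0.21 (SD, n = 4; limma adjusted p = 0.511 against mid-late). It was 0.76 above late regressed glands (limma adjusted p = 0.116). Without late regressed array 1 that difference was 0.885 and called (limma adjusted p = 0.0122), where 924 of all probe sets were. Of 11 ganglioside breakdown genes the acid ceramidase gene ASAH1 rose by 0.99 in late regressed glands (limma adjusted p = 0.0203) and the other 10 were not called. ASAH1 has 5 probe sets, and besides the leading one only 1 was called. Without arrays 2 and 3 the ASAH1 difference was 0.77 (limma adjusted p = 0.106). The 1 called gene is 9.09% of that list, where 13.1% of all genes were called.

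Of 28 genes of haem synthesis and mitochondrial iron, the setting of FAM210B, 1 rose and 3 fell in late regressed against mid-late glands. ALAS1, the first enzyme of haem synthesis outside red cells, fell by 1.55 (limma adjusted p = 0.0246), to 8.40 ± 0.63 in late regressed, against 9.95 ± 0.58 in mid-late arrays (SD, n = 4 each). The next enzyme, ALAD, fell by 0.95 (limma adjusted p = 0.0139), and PGRMC1, a haem-binding membrane protein, by 0.64 (limma adjusted p = 0.013). ALAD has 2 probe sets and the other one was not called, while the 3 other probe sets of PGRMC1 were. The ferritin light chain gene FTL rose by 0.75 (limma adjusted p = 0.0231). The calls on these 4 genes are 14.3% of the list, where 13.1% of all genes were called. Without late regressed arrays 2 and 3 they were not made (limma adjusted p from 0.0699 to 0.152), with differences of -1.08 for ALAS1, -0.81 for ALAD, -0.49 for PGRMC1 and 0.78 for FTL, and the transferrin receptor gene TFRC, named after its values were seen, was the 1 gene of the list called (-0.55, limma adjusted p = 0.0443). Without late regressed array 1, ALAD, PGRMC1, SLC25A37 and ABCB6 were called in late functional against late regressed glands, where 924 of all probe sets were. SLC25A37 and ABCB6 were named after their values were seen. FAM210A, the paralog of FAM210B, lay at 5.10 ± 0.10 in late functional, 5.12 ± 0.33 in late regressed and 5.11 ± 0.14 in mid-late arrays. It was named after its values were seen.

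**Figure D4:**
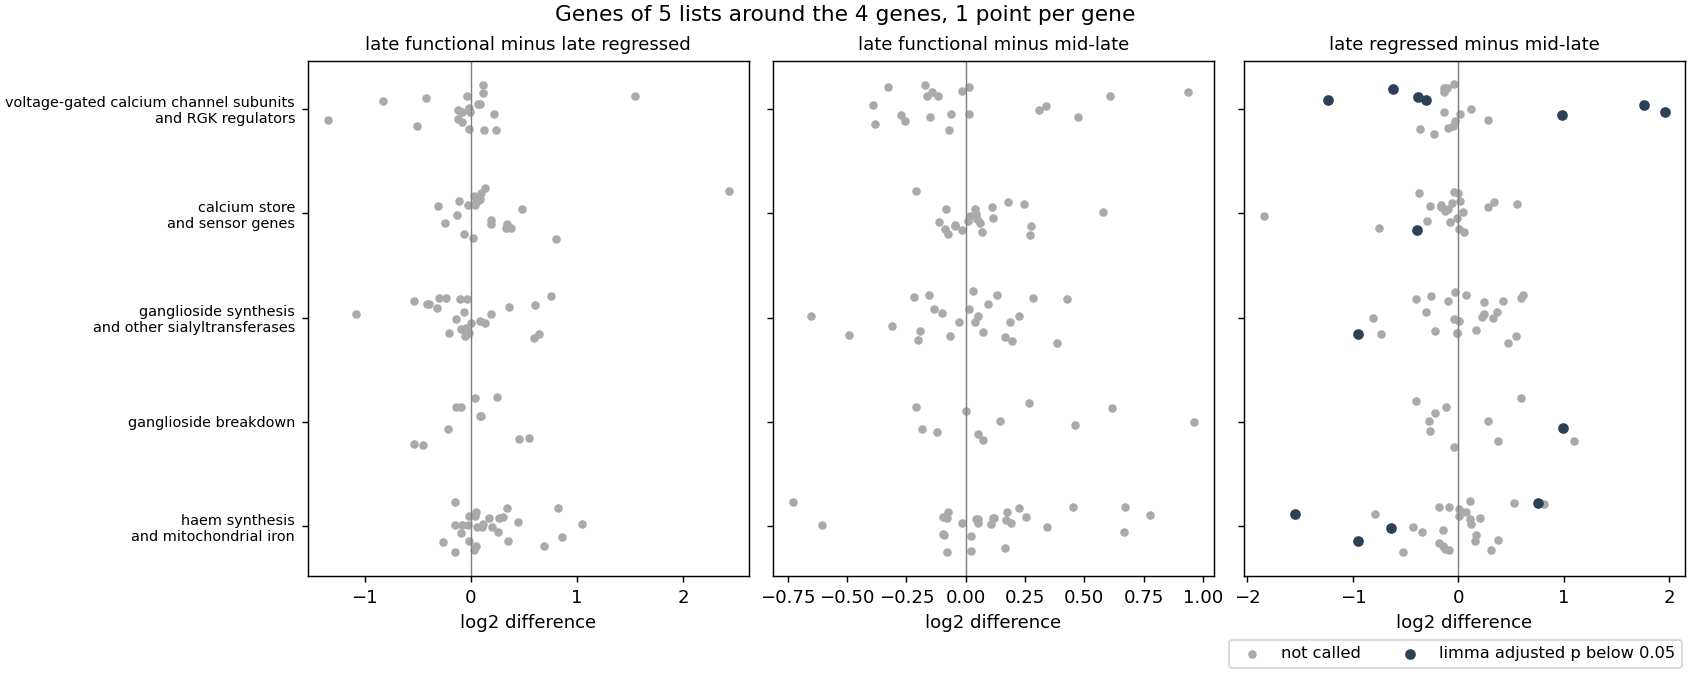
Log2 differences of the 106 genes of the 5 lists, 1 point per gene, for late functional minus late regressed, late functional minus mid-late and late regressed minus mid-late. Dark points passed limma's test at an adjusted p below 0.05. They appear in the late regressed minus mid-late panel, 5 to the right of 0 and 9 to the left.

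Genes next to the 4 on their chromosomes gave 0 calls in late functional glands, where 1.17% of all genes were called against mid-late and 0.00708% against late regressed. RefSeq order gave the nearest 2 measured protein-coding genes on each side, 16 in all, a choice made after the data were seen. Against mid-late, the adjacent genes AURKA (-0.34) and MC3R (-0.23) beside FAM210B and CMAS (-0.19) beside ST8SIA1 had limma adjusted p-values of 0.197, 0.223 and 0.511. Among the 16, 3 were called in late regressed against mid-late glands, where 13.1% of all genes were, CMAS, STAM (0.57, limma adjusted p = 0.0333) and CASS4 (-0.35, limma adjusted p = 0.0211), 2 of which, CMAS and CASS4, fell. MC3R and CASS4 lay below the NC mark.

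Markers of the cell types a whole gland can hold were read as per-array means of 10 lists. With 4 against 4 arrays the smallest exact two-sided permutation p is 0.0286, and after adjustment over 30 tests the lowest was 0.123, so no list was called. The macrophage list (13 genes) was tight in late functional arrays, at 8.38 to 8.465, and ran from 7.59 to 9.504 in late regressed and from 6.44 to 8.15 in mid-late arrays. Late functional arrays thus lay above all mid-late arrays (difference 1.16, exact permutation p = 0.0286) and inside the late regressed range (0.06, exact permutation p = 0.886). The mean covers unlike genes, since 5 of the 13 had a higher mean in late functional than in late regressed arrays and 8 a lower one. Complement gene C1QA averaged 10.44 in late functional, 8.39 in late regressed and 9.06 in mid-late arrays, and C1QB and C1QC were also highest in late functional arrays. CYBB, a subunit of the phagocyte oxidase, averaged 7.96 in late functional, 8.94 in late regressed and 6.38 in mid-late arrays. These genes were named after their values were seen. The fibroblast list was lower in late functional arrays than in late regressed ones (-0.30, exact permutation p = 0.0286), and the endothelial list was 0.11 above mid-late (exact permutation p = 0.0286). Below mid-late arrays lay the erythrocyte (-0.17) and proliferation (-0.67) lists, each with an exact permutation p of 0.0286.

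Because KALRN is known from nerve cells and FAM210B from red cells, markers of these were read too. The neuron and glia list, with 6 of 12 measured genes above the NC mark, lay at 4.95 to 5.16 in late functional, 4.85 to 5.13 in late regressed and 5.12 to 5.30 in mid-late arrays. The erythrocyte list, with 3 of 9 above the mark, lay at 4.58 to 4.72, 4.48 to 4.83 and 4.72 to 4.87 in the same order. The lymphocyte, smooth muscle and mast cell lists had differences of -0.07, 0.06 and 0.20 between late functional and mid-late arrays and of -0.01, -0.12 and 0.11 between late functional and late regressed arrays. The proliferation list averaged 6.32 ± 0.58 in late functional, 6.01 ± 0.34 in late regressed and 6.99 ± 0.09 in mid-late arrays (SD, n = 4 each), and late functional array 4 was lowest of the 12, at 5.46. In none of the 10 lists did the late functional arrays lie apart from both other groups on 1 side. Such means can hide genes that go opposite ways, so nothing about the 4 genes is read from them. The part of cell composition in the values of the 4 genes was not tested.

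**Figure D5:**
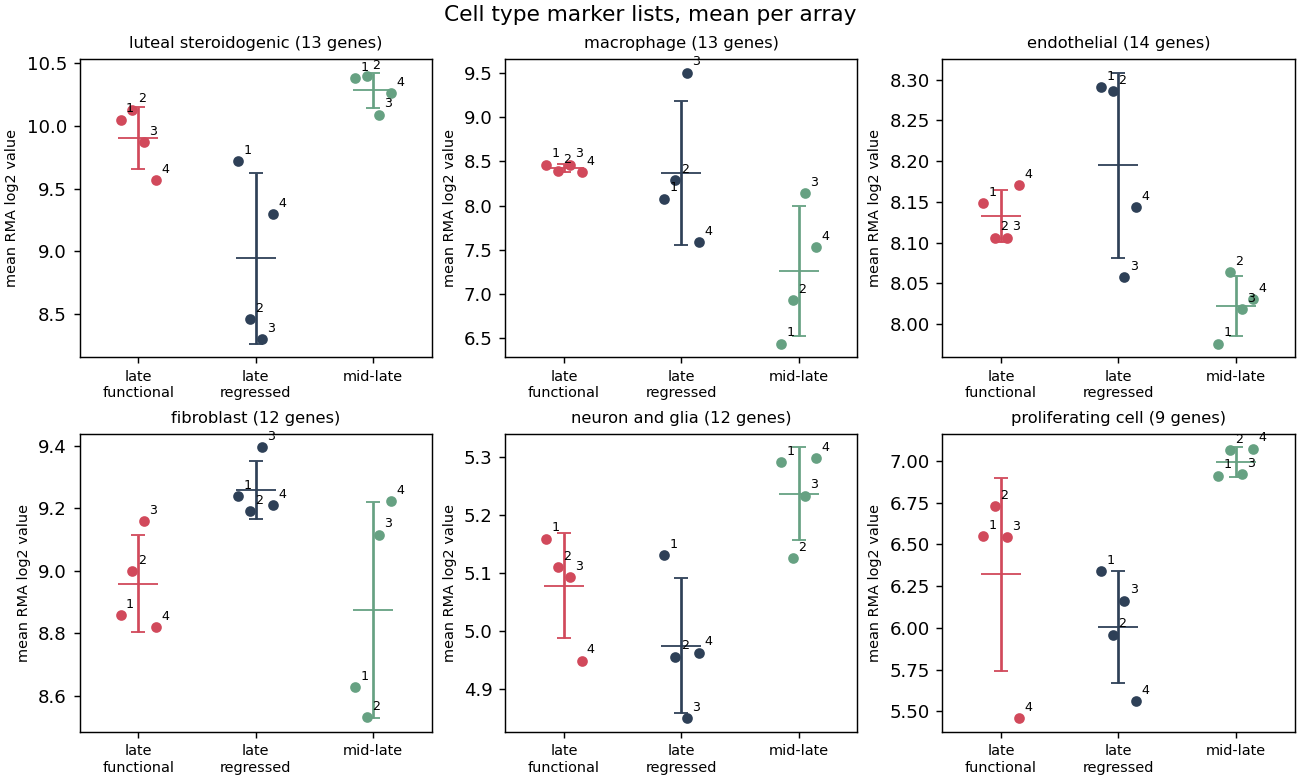
Mean RMA log2 value per array of 6 cell type marker lists on late functional, late regressed and mid-late arrays. Points are arrays, labelled by replicate number, and bars show the mean and SD. Late functional macrophage means lie between 8.38 and 8.465, above all 4 mid-late arrays and within the late regressed range.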

How the data were processed

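The deposited table holds 1 log2 value per probe set and array. The authors made it with RMA, per the submitters' processing notes, which name no version or settings. RMA usually brings arrays to a common distribution, which hides any shift in the RNA content of the cells. Of 52865 probe sets, 158 array controls were left out. The platform annotation gave 1 symbol for 24956 of those tested, several for 361 and none for 27390. A gene's leading probe set was that with the highest mean over the 12 arrays.

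All 12 arrays entered 1 model of 3 group means (limma 3.58.1, R 4.3.3), with Benjamini-Hochberg adjustment over all 52707 probe sets. The p-values measure the spread between glands, and the number of arrays limits the precision. The fit was run on simulated data with known changes and the same spread in all groups. That run does not cover groups of unlike spread, such as the late regressed arrays for KALRN. Replicate numbers were not taken to pair the arrays. Of 12 same-number pairs, 3 had deviations correlated above 0.1, the highest at 0.296, which does not settle whether the numbers pair them. Symbols were checked by Entrez ID in RefSeq (24616 matched, 0 changed). The highest correlation between any 2 arrays was 0.9955, and 0 pairs were identical.

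The 4 genes, the lists and the tests were chosen with earlier results of these data known. Named genes were all probe sets of the 4 genes, the 3 most and 2 least correlated genes of each, and up to 4 called genes per list with the largest differences. Alternatives were a signal filter, median centring, quantile normalization, a trended robust prior, only the groups compared, a replicate block, array weights, 3′ to 5′ and NC covariates, the mean over probe sets and leaving arrays out. The labels give no scan dates or batches here, so batches were not tested. Genes without a symbol in the annotation, such as LHCGR, were not analysed here. Some further gene lists are not reported here.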

Additional observations from a re-analysis of the deposited data

Results flagged for a closer look

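In 7 of 57 groups of 4 arrays examined, 1 array stood off from the other 3 by more than the 95% critical value of Dixon's gap-to-range ratio, where chance flags about 1 in 20. Late functional array 4 did so 3 times. It was low for KALRN on MmugDNA.29034.1.S1_at (7.99, the nearest of its group 8.91), high for ST8SIA1 (8.68, the nearest 7.95) and low for the mean of the proliferation marker list (5.46, the nearest 6.54). Late regressed array 4 was high for CACNB2 on MmugDNA.13465.1.S1_s_at (6.04, the nearest 5.55). Among mid-late arrays, number 2 was low for CACNB2 on MmugDNA.40924.1.S1_at (3.62, the nearest 3.79). Mid-late array 4 was low for KALRN on MmugDNA.29034.1.S1_at (6.84, the nearest 7.07). Mid-late array 1 was high for FAM210B on MmugDNA.39841.1.S1_at (7.79, the nearest 7.21). The causes were not tested.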

How the results depend on the processing

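Counts of probe sets called by limma moved with the settings. Late functional minus mid-late gave 470, and 107 after the signal filter, 2682 with only the groups compared, 4 with the replicate block, 3106 with array weights, 883 with the 3′ to 5′ covariate, 0 with the NC covariate and 2417 without late regressed arrays 2 and 3. Late functional minus late regressed gave 1, and 10 after the filter, 2 after median centring, 5 after quantile normalization, 15 with the trended prior, 11 with weights, 5 with the NC covariate, and 0 with only the groups compared, with the block, with the 3′ to 5′ covariate and without arrays 2 and 3. Late regressed minus mid-late gave 5282, and 1620 with only the groups compared, 2839 with weights, 0 with the NC covariate and 975 without arrays 2 and 3. Late functional minus the mean of the others gave 10, and 4 with the block, 141 with weights, 0 with the NC covariate and 58 without arrays 2 and 3. Leaving out single arrays gave 4 to 1008, 0 to 924, 2050 to 7532 and 1 to 64 in the same order. The highest of these came without late regressed array 2, late regressed array 1, late regressed array 1 and late functional array 4. Without late functional array 2 the counts were 4 against mid-late and 1 against the mean of the others, and without mid-late array 2 late regressed minus mid-late gave 2050. Of the list calls between late regressed and mid-late glands, those on CACNB3, CMAS, ALAD and PGRMC1 were made in 12 of 12 such fits. Those on RRAD, GEM, CACNA2D1, ITPR3, ASAH1, ALAS1 and FTL were made in 7 to 11. Calls on CACNA1B, CACNG1, CACNG2 and other list genes were not counted over these fits. Whether the replicate numbers pair the arrays was not settled (5 of 12 arrays correlated best with their own number).

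Uncalled late regressed minus mid-late differences changed sign for FAM210B MmugDNA.39841.1.S1_at (0.0146 after centring, 0.137 with weights, 0.116 with the 3′ to 5′ covariate, 0.243 with the NC covariate, 0.235 without arrays 2 and 3) and for FAM210B MmugDNA.39842.1.S1_at (-0.0203 after quantile normalization). With the NC covariate they did so for CACNB2 MmugDNA.13465.1.S1_s_at (-0.0743), KALRN MmugDNA.29034.1.S1_at (0.202) and KALRN MmugDNA.19310.1.S1_at (0.187), the last also without arrays 2 and 3 (0.0759). Over single arrays left out, they ran from -0.0188 to 0.203 for CACNB2 MmugDNA.13465.1.S1_s_at, -0.0362 to 0.318 for ST8SIA1, -0.0111 to 0.0699 for FAM210B MmugDNA.39842.1.S1_at and -0.133 to 0.164 for FAM210B MmugDNA.39841.1.S1_at. Marker list differences that changed sign so were, for late functional minus late regressed, macrophage (-0.199 to 0.438), lymphocyte (-0.12 to 0.0498) and erythrocyte (-0.0559 to 0.0613). For late functional minus mid-late they were fibroblast (-0.0301 to 0.201) and smooth muscle (-0.0324 to 0.153), and for late regressed minus mid-late lymphocyte (-0.116 to 0.0485) and mast cell (-0.0148 to 0.179). The causes were not tested. The signal filter gave no value for CACNB2 MmugDNA.40924.1.S1_at, and a fit of only the groups compared gave none for the mean of the others. Probe sets near the NC mark limit the size of a fold.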
